A study of Mus musculus with 9 samples.

Results

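TRAV12 is a subgroup of mouse T-cell receptor alpha-chain (TRA) variable genes, known in the serological nomenclature as V-alpha 8. TRAV12 chains were taken as productive TRA contigs whose first-named V gene was a TRAV12, TRAV12D or TRAV12N gene, and each combination of V gene, J gene and junction counted once per library. By this rule 1861 of 22252 distinct TRA chains in 8 libraries were TRAV12, and 1025 of them lay in the 6 libraries that form the main comparison.

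The study sequenced T-cell receptors from single lymph node cells of female mice aged 10 to 11 months. WT mice were compared with 5xFAD mice, a transgenic line that carries human familial Alzheimer's disease mutations. Each genotype gave 1 library from inguinal nodes (iLN), 1 from superficial cervical nodes (sCLN) and 1 from deep cervical nodes (dCLN). A CD4-titled dCLN library labelled WT, and a library labelled as a mix of all 3 node types and both genotypes, are shown beside them. The labels name no treatment of any group. The labels give neither the strain of either genotype nor the number of animals behind a library, and libraries of 1 genotype may share animals. Differences between genotypes therefore rest on 3 node types and not on known animals.

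A TRA chain is made by joining 1 of many TRAV genes to 1 of many TRAJ genes, with bases trimmed and added at the joint. The TRAV and TRAJ genes lie in 1 long array. Joining can be repeated on the same chromosome, so that later joints use V genes farther upstream and J genes farther downstream. The V gene encodes the CDR1 and CDR2 loops of the receptor and the junction encodes CDR3, and CDR3 forms much of the contact with peptide. In the reference array of the laboratory mouse a central block of TRAV genes is present in several near-identical copies. Members of such copies are named with a D or an N.

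TRAV12 shows this layout. In GRCm38 the 9 functional TRAV12 genes lie on the plus strand of chromosome 14. Trav12d-1 (52844465 to 52845041), Trav12d-2 (from 52915799) and Trav12d-3 (from 52929789) come first. Trav12n-1 (from 53155512), Trav12n-2 (from 53226773) and Trav12n-3 (from 53240745) follow. Trav12-1 (from 53538191), Trav12-2 (from 53616315) and Trav12-3 (53621657 to 53622245) lie nearest the J genes among the functional members. Trav12-4 is annotated as a pseudogene.

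The deposited contigs held the V region bases themselves, and these were read from the mature start to the base before the junction. A total of 11 V region sequences had at least 10 chains each and held 1846 of the 1861 chains. The other 15 chains each carried a sequence of their own. Of the 11, 6 were identical to GRCm38 genes, each D copy being identical to its N copy, and 5 had no identical GRCm38 gene. The 5 are named by the allele that the authors' caller gave them, and TRAV12D-3*02 was found as variants a and b. The sequences from CDR1 to CDR2 of 9 types are shown because these loops hold differences that separate the reference from the non-reference types, with CDR1 and CDR2 in capitals.
GRCm38 Trav12-1: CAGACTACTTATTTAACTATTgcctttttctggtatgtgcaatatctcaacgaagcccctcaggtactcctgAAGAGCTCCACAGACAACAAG
TRAV12D-1*02: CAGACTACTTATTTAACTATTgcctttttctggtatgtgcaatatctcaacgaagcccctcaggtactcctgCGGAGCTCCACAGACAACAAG
GRCm38 Trav12d-1/Trav12n-1: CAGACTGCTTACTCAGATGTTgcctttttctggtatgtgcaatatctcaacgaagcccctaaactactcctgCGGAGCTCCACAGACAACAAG
TRAV12-1*02: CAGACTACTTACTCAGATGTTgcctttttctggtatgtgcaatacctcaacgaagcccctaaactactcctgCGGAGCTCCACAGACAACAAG
GRCm38 Trav12-2: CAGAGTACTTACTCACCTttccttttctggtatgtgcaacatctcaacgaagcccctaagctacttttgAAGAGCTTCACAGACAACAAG
GRCm38 Trav12d-2/Trav12n-2: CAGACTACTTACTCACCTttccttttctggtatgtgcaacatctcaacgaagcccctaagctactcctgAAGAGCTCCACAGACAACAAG
TRAV12-2*01: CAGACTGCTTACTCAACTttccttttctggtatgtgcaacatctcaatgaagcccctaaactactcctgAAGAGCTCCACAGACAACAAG
GRCm38 Trav12d-3/Trav12n-3: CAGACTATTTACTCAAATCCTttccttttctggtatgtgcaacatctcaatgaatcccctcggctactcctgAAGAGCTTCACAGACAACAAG
TRAV12D-3*02 variant a: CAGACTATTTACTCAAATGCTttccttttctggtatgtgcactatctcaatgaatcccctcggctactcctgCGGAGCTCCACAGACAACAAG

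The non-reference types were not single-base variants of the genes whose numbers they carry. TRAV12D-1*02 differed from its nearest reference type, Trav12-1, at 2 of 270 bases, A148C and A149G, both in 1 CDR2 codon and counted from 1 at the start of the mature V region. TRAV12-1*02 was nearest to Trav12d-1/Trav12n-1, with 4 differences, of which G82A lies in CDR1. By bases TRAV12-2*01 was nearest to Trav12d-2/Trav12n-2, with 8 differences in 267 bases that change 6 residues, including A82G and C91A in CDR1. It differed from Trav12-2 at 10 bases but at only 5 residues. Variants a and b of TRAV12D-3*02 each differed from Trav12d-3/Trav12n-3 at 7 of 270 bases and 6 residues, with C94G in CDR1 and A148C, A149G and T155C in CDR2. From Trav12-3, whose sequence is not printed above, each differed at 8 bases but at only 3 residues, with 0 differences in CDR1 and 2 in CDR2. Variant b differed from variant a by C136T and G260C, both outside the loops. The allele number given by the caller therefore did not order the sequences by likeness to the reference gene of the same name.

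The libraries were of unequal depth. The 6 main libraries held 1428 to 3567 distinct TRA chains, the CD4-titled library 5750 and the mixed library 3512. The CD4-titled library labelled WT and its partner labelled 5xFAD shared 6829 barcodes and 385 TRAV12 junctions of 401 and 405, so the partner was left out. The other libraries shared at most 46 barcodes per pair, and none of these barcodes carried the same TRAV12 junction in both. The 6 main libraries and the other libraries were called against different allele sets, so gene copy names are not compared between these tables.

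TRAV12 made up a smaller share of TRA chains in 5xFAD than in WT libraries, and the difference did not pass the test across all features. In WT the share was 10.1% in dCLN (148 of 1467 chains, exact 95% interval 8.59 to 11.7), 8.40% in sCLN (120 of 1428, 7.02 to 9.96) and 8.94% in iLN (185 of 2070, 7.74 to 10.2). In 5xFAD it was 7.04% in dCLN (251 of 3567, 6.22 to 7.93), 7.96% in sCLN (233 of 2926, 7.01 to 9.004) and 5.74% in iLN (88 of 1532, 4.63 to 7.03). The genotypes did not overlap, but the lowest WT and the highest 5xFAD value, both from sCLN, had overlapping intervals. Shares of other features did not overlap either, among them TRAV3, TRAV4, TRAV8, TRAJ21 and TRAJ22, so this is not particular to TRAV12. Intervals here and below cover counting error only. The means were 9.14% ± 0.86 (SD, n = 3) in WT and 6.91% ± 1.11 (SD, n = 3) in 5xFAD. The ratio of 5xFAD to WT was 0.697 in dCLN, 0.948 in sCLN and 0.643 in iLN.

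**Figure D1:**
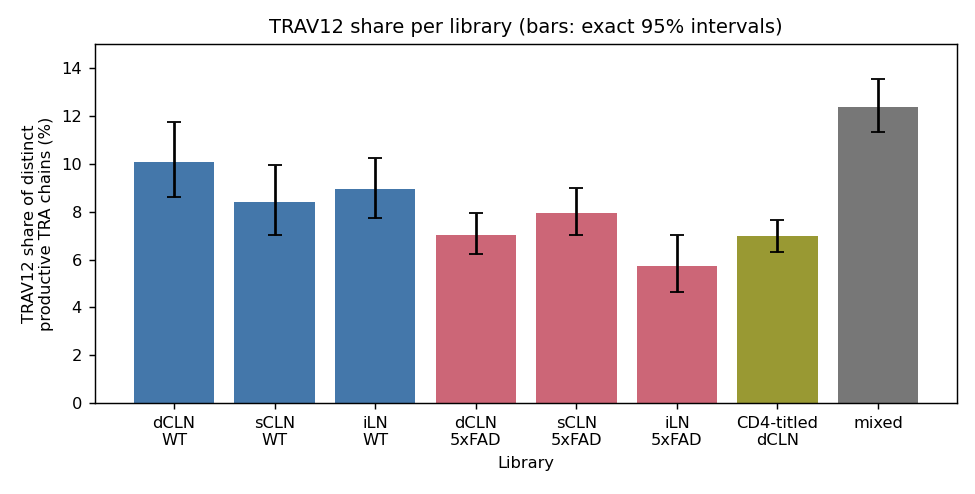
TRAV12 share of distinct productive TRA chains in percent (vertical axis) for each library (horizontal axis), with WT in blue, 5xFAD in red and the other libraries in olive and grey. Error bars are exact 95% binomial intervals, and the sCLN pair, at 8.40% and 7.96%, lies closest together.

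In edgeR's quasi-likelihood test, with terms for node and genotype, the log2 change of TRAV12 was -0.40 (SE 0.14, unadjusted p = 0.031, Benjamini-Hochberg adjusted p = 0.210). Of 61 TRAV subgroups and TRAJ genes tested, 0 (0%) passed the threshold of 0.05 in edgeR, 10 had an unadjusted p under 0.05, and DESeq2 called 0. Without the sCLN WT library the log2 change was -0.57 with an edgeR adjusted p of 0.000144, and without the sCLN 5xFAD library it was -0.57 with 0.000139. Leaving out either removes the only sCLN pair from the comparison.

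The CD4-titled library had a TRAV12 share of 6.97% (401 of 5750 chains) and the mixed library 12.4% (435 of 3512, 11.3 to 13.5). The mixed library was thus above all 6 main libraries, although its label names both genotypes. TRAV12 ranked from 4 to 6 among 18 to 20 TRAV subgroups in the main libraries, 7 in the CD4-titled and 3 in the mixed library.

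The subgroups whose log2 share varied most like that of TRAV12 over the 6 libraries were TRAV14, TRAV3 and TRAV16. Pearson's r was 0.96, 0.89 and 0.73, among 13 other subgroups with a mean of at least 20 chains, as a description of libraries that share animals and depth in ways the labels do not give. TRAV14 was at 10.1%, 8.33% and 9.61% in WT dCLN, sCLN and iLN and at 7.68%, 8.71% and 5.29% in 5xFAD. All 3 have D or N copies, as have 11 of the 13 subgroups compared, among them TRAV6 and TRAV13 with an r of -0.97 each. Of the 13 subgroups with such copies, TRAV12 included, 5 were higher and 8 lower in 5xFAD, and 0 passed the threshold. Their median log2 change of -0.12 was the same as that of all 19 TRAV subgroups tested, of which 8 were higher and 11 lower. The median over all 61 features, TRAJ genes included, was 0.08.

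Not all V region types were found in both genotypes. The 5 reference types other than Trav12d-2/Trav12n-2 were found in all 3 WT libraries and in none of the 5xFAD libraries. The Trav12d-2/Trav12n-2 sequence was shared by every library and cannot tell reference from non-reference chromosomes, so it is set apart. Among the remaining chains of the 11 types, reference types made up 61.3% in WT dCLN (95% interval 51.5 to 70.4, n = 111), 46.5% in WT sCLN (35.7 to 57.6, n = 86) and 52.9% in WT iLN (44.2 to 61.3, n = 140). Of 572 TRAV12 chains in 5xFAD, 419 carried non-reference types, 152 the shared type and 0 the other 5 reference types. The shared type was set apart because 5xFAD libraries also held it. The absence of the remaining reference types from 5xFAD is thus part of the grouping, and no limit or test is drawn from it. WT libraries held both sets, with 182 reference, 155 non-reference and 107 shared-type chains of 453.

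**Figure D2:**
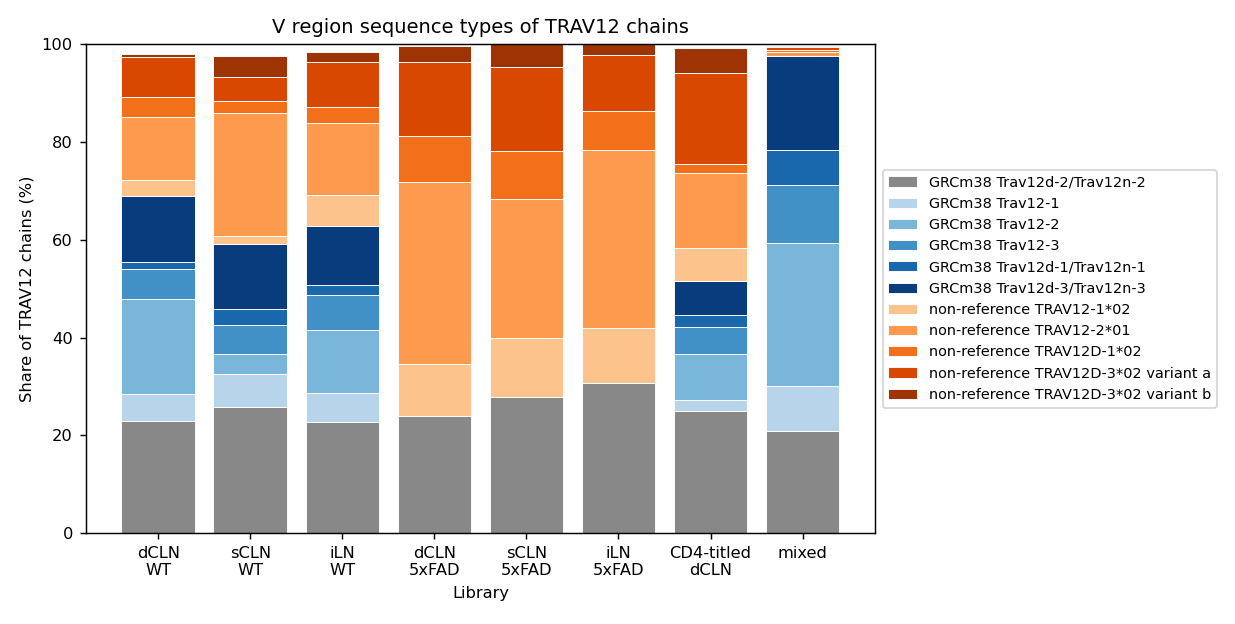
Share of TRAV12 chains in percent (vertical axis) carried by each V region sequence type in each library (horizontal axis), with the shared type in grey, other reference types in blue and non-reference types in orange; bars stop short of 100 where chains had a rare sequence. Blue makes up part of the WT bars and fills most of the mixed bar, and its absence from the 3 bars of 5xFAD is part of the grouping.

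The CD4-titled library held both sets as well, with 35.9% reference types among 298 such chains (30.5 to 41.6). In the mixed library 97.4% of 342 such chains were reference types (95.1 to 98.8), and 9 were non-reference. This was above the 61.3% of WT dCLN, the highest of the main libraries. The labels give neither its animals nor the share of each genotype, so it is called the library labelled mixed and no direction between genotypes is drawn from it.

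Within the non-reference set, counts pooled over the 3 nodes had the same order in both genotypes, but single WT libraries did not all keep it. TRAV12-2*01 was the most frequent of them, with 19, 30 and 27 chains in WT dCLN, sCLN and iLN and 93, 66 and 32 in 5xFAD. Variant a of TRAV12D-3*02 came second, with 35 chains in WT and 88 in 5xFAD. TRAV12-1*02 followed with 19 and 65, TRAV12D-1*02 with 15 and 54, and variant b of TRAV12D-3*02 with 10 and 21. In WT sCLN variant b had 5 chains, TRAV12D-1*02 had 3 and TRAV12-1*02 had 2. In WT dCLN TRAV12D-1*02 had 6 and TRAV12-1*02 had 5. In the reference set of WT, Trav12-2 and Trav12d-3/Trav12n-3 had 58 chains each, Trav12-3 had 29, Trav12-1 had 27 and Trav12d-1/Trav12n-1 had 10.

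As a share of all TRA chains, the shared type was at 2.32%, 2.17% and 2.03% in WT dCLN, sCLN and iLN and at 1.68%, 2.22% and 1.76% in 5xFAD. These values overlap between genotypes. Non-reference types were at 2.93%, 3.22% and 3.19% in WT and at 5.33%, 5.74% and 3.98% in 5xFAD. Reference types other than the shared one were at 4.64%, 2.80% and 3.57% in WT. The higher non-reference share in 5xFAD was thus smaller than the sum of both sets in WT in each node. The library labelled mixed had 9.48% of TRA chains in reference types. Reference chains are themselves part of the TRAV12 share, so the order of the 2 shares over libraries is not independent and nothing is drawn from it. Whether V alleles account for the lower TRAV12 share in 5xFAD was not tested, and V alleles and genotype cannot be told apart in these libraries.

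The J alleles joined to TRAV12 split along the same line. TRAJ9, TRAJ31, TRAJ32 and TRAJ34 were each called as 1 of 2 alleles, and the library labelled mixed held mostly TRAJ9*02, TRAJ31*01, TRAJ32*01 and TRAJ34*02 (128 of 132, 152 of 160, 83 of 86 and 110 of 114 chains of any V gene). In WT, 26 of 27 chains with a reference V region were joined to these alleles, against 0 of 25 chains with a non-reference V region. This held in each node, with 11 of 11 against 0 of 5 in dCLN and 6 of 6 against 0 of 9 in sCLN, while iLN had the exception, 9 against 1, beside 0 of 11. Chains of the shared type were divided, with 11 of 18 in WT. In 5xFAD 2 of 72 non-reference and 2 of 29 shared-type chains carried these alleles, all of them TRAJ31*01. The CD4-titled library gave 16 of 16 for reference, 0 of 31 for non-reference and 7 of 15 for shared-type chains. V and J genes on 1 chromosome are joined to each other, so this count shows which V and J alleles occurred together. J allele names are as called in each library, so V classes are compared within each source.

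**Figure D3:**
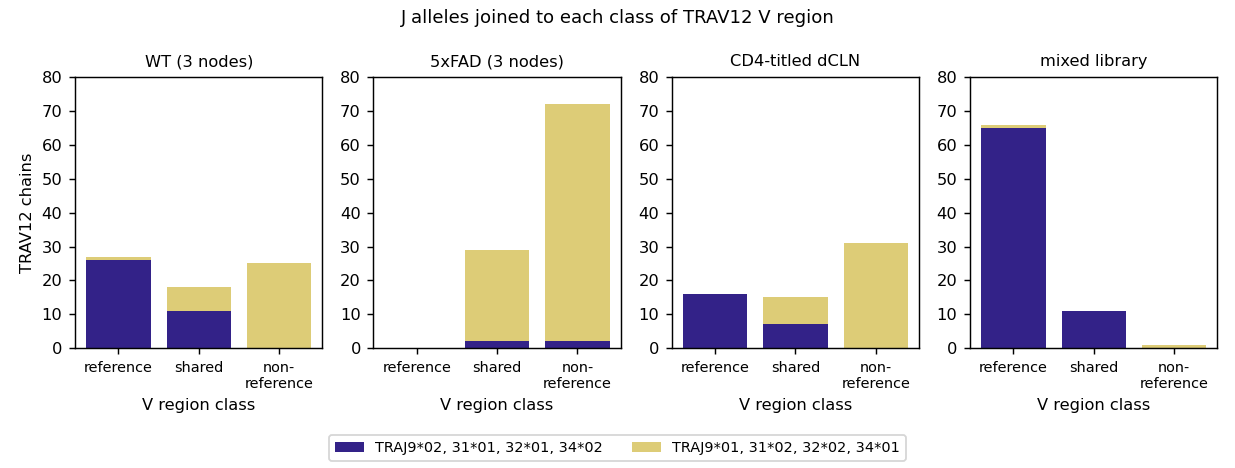
Number of TRAV12 chains (vertical axis) joined to either set of TRAJ9, TRAJ31, TRAJ32 and TRAJ34 alleles, by class of V region (horizontal axis) and source (panels). Reference V regions stand almost wholly in dark blue (26 of 27 in WT) and non-reference V regions in yellow (25 of 25 in WT).

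Gene copy names from the authors' caller followed the sequences only in part. The GRCm38 Trav12-2 sequence was called TRAV12D-2*01 in the main tables, and the GRCm38 Trav12-1 sequence was called TRAV12D-1*01. The non-reference sequences nearest by base differences to D and N copies of numbers 1 and 2 were called TRAV12-1*02 and TRAV12-2*01. A D or N in these names is thus no measure of where a gene lies in GRCm38.

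By first-named copy, TRAV12N-3 was found in 21, 16 and 22 chains of WT dCLN, sCLN and iLN and in 0 of any 5xFAD library. TRAV12-3 was found in 9, 8 and 13 WT chains and in 0 of 5xFAD. Both names passed the minimum of 10 chains through WT libraries alone. Their absence from 5xFAD is that of the reference types above, so no fold or p-value is drawn from it. TRAV12D-2 had 65, 36 and 69 chains in WT and 60, 65 and 27 in 5xFAD, and fell by 0.85 on the log2 scale (SE 0.28, edgeR adjusted p = 0.0117). All 3 names cover reference types: TRAV12N-3 was given to Trav12d-3/Trav12n-3, TRAV12-3 to Trav12-3, and TRAV12D-2 to Trav12-2 as well as to the shared type. In edgeR 3 of 7 TRAV12 copies were called lower, TRAV12N-3 and TRAV12-3 among them. This stands beside 20.5% of the 78 TRAV genes tested called lower and 24.4% called in either direction.

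TRAV12-1, TRAV12-2, TRAV12D-1 and TRAV12D-3 did not pass the test, with log2 changes of 0.45, 0.57, -0.41 and 0.48. Without the WT dCLN library 0 of the TRAV12 copies and 3 TRAV genes were called, and without the 5xFAD dCLN library 1 TRAV12 copy and 8 TRAV genes. TRAV12N-3 and TRAV12-3 remained at 0 in 5xFAD without WT dCLN. TRAV12D-2 was then at -0.54 on the log2 scale, and also at -0.54 without 5xFAD dCLN. It was at -0.81 without either iLN library (adjusted p = 0.270 and 0.205), at -0.84 in DESeq2 (0.173), and at -1.20 without either sCLN library (0.00104 and 0.00129). With ambiguous calls left out, TRAV12D-2 had 59 chains in WT and 0 in 5xFAD. All 5xFAD chains of that name (60, 65 and 27 in dCLN, sCLN and iLN) had ambiguous calls. The filter thus sets the 0, and no fold or test is drawn from it.

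The caller's own measures of fit gave a different picture from the sequences. A call was ambiguous where it named more than 1 V gene. Ambiguous TRAV12 calls made up 25.7%, 30.0% and 25.9% in WT dCLN, sCLN and iLN and 23.9%, 27.9% and 30.7% in 5xFAD, so the genotypes overlapped. In 5xFAD all of them, 60, 65 and 27 chains, carried the shared type, whose D and N copies are identical. Other TRA chains were ambiguous in 21.8%, 19.6% and 20.8% in WT but in 4.16%, 4.31% and 4.02% in 5xFAD, with no overlap. TRAV12 calls were more often ambiguous than other calls in 6 of 6 libraries (27.4% ± 2.65 against 12.5% ± 9.12, SD, n = 6, exact sign-flip permutation p = 0.031, the smallest that 6 libraries allow, adjusted over 9 measures 0.056). With the other allele set 46.4% of TRAV12 calls in the CD4-titled and 85.1% in the mixed library were ambiguous.

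Identity to the called allele depended on the type and on the allele set. The deposited identity was 1 at the median for 8 of the 11 types in the main tables. It was 0.986 for Trav12-3, called TRAV12-3*03 there, whereas the same sequence was called TRAV12-3*05 with an identity of 1 in the other tables. Thus a GRCm38 gene carried identities under 1, and the types TRAV12-1*02 and TRAV12D-3*02 variant a had 0.989 and 0.993. Mean identity was 0.998 in both genotypes, and it differed in opposite directions between nodes (exact sign-flip permutation p = 0.75, 3 pairs, smallest possible 0.25). Against other TRA chains TRAV12 identity was higher in 6 of 6 libraries (0.998 against 0.996, exact p = 0.031, adjusted 0.056).

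TRAJ genes numbered 40 and above were less often partners of TRAV12 than of other TRA chains. High TRAJ numbers lie nearest the V genes, and the mean TRAJ number of TRAV12 chains was 28.4 ± 1.82 against 31.6 ± 0.86 for other TRA chains (SD, n = 6). It was lower in 5 of 6 libraries, the exception being WT iLN, at 31.02 against 30.5 (exact sign-flip permutation p = 0.0625, adjusted over 9 measures 0.094). TRAJ genes numbered 40 and above took 25.7%, 15% and 28.1% of TRAV12 chains in WT dCLN, sCLN and iLN, and 26.7%, 21.5% and 23.9% in 5xFAD. The same genes took 31.03% to 37.4% of other chains, so the classes did not overlap. TRAJ genes 21 to 39 took 46.5% ± 4.94 against 41.0% ± 1.87, and TRAJ genes 2 to 20 took 30.0% ± 4.34 against 24.8% ± 1.82.

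Tested gene by gene, TRAJ49 and TRAJ52 were lower with TRAV12 than with other V genes. TRAJ49 was in 3, 0 and 2 TRAV12 chains of WT dCLN, sCLN and iLN and in 5, 3 and 1 of 5xFAD. That is 1.25% ± 0.74 of TRAV12 chains against 3.95% ± 0.29 of other chains (SD, n = 6), a log2 difference of -1.52 (SE 0.30, edgeR adjusted p = 0.000126), lower in 6 of 6 libraries. TRAJ52 was in 1, 0 and 4 WT chains and in 5, 1 and 0 of 5xFAD, or 0.88% ± 0.97 against 2.67% ± 0.51, a log2 difference of -1.33 (SE 0.38, edgeR adjusted p = 0.0128), lower in 5 of 6 libraries. These 2 were the calls among 42 TRAJ genes, 4.76% of those tested, both in the list of 14 numbered 40 and above. In that list 12 genes had a negative and 2 a positive difference, with a median log2 difference of -0.43, beside -0.00 over all 42. TRAJ58, TRAJ57 and TRAJ56, the nearest to the V genes among those tested, had -0.002, 0.19 and -0.038. The lower share thus did not extend to the J genes closest to the V genes. The 15 genes numbered 21 to 39 had a median of 0.16 and the 13 numbered 2 to 20 a median of 0.22, with no call.

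**Figure D4:**
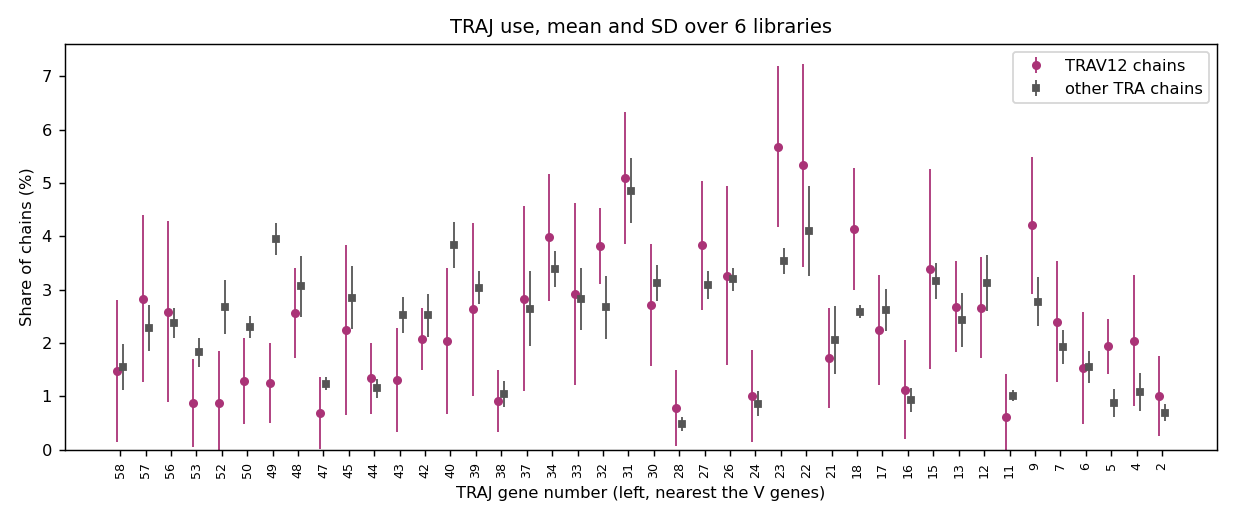
Share of chains in percent (vertical axis) using each of 42 TRAJ genes (horizontal axis, ordered from the V genes outward) for TRAV12 and for other TRA chains, as mean and SD over 6 libraries. TRAJ49 and TRAJ52, toward the left, show 1.25% and 0.88% for TRAV12 against 3.95% and 2.67% for other chains.

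When chains with ambiguous V calls were left out, which removes the shared type, the log2 differences were -1.22 for TRAJ49 and -1.26 for TRAJ52, and neither passed the threshold (edgeR adjusted p = 0.0683 and 0.0864). The TRAJ52 call was also missed without the WT dCLN library (-1.22, adjusted p = 0.051), without the 5xFAD sCLN library (-1.01, 0.196) and in DESeq2 (-1.52, 0.105). The fitted dispersion was near that of pure counting, so adjusted p-values here reflect mainly counting error.

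The most used partners were TRAJ23 with 54 TRAV12 chains, TRAJ22 with 52, TRAJ31 with 50, TRAJ9 with 45, and TRAJ18 and TRAJ34 with 43 each. TRAJ23 was at 5.68% ± 1.51 against 3.54% ± 0.25, TRAJ18 at 4.14% ± 1.14 against 2.59% ± 0.13 and TRAJ9 at 4.21% ± 1.28 against 2.78% ± 0.45 (SD, n = 6). They missed the threshold, with edgeR adjusted p of 0.053, 0.051 and 0.051. Among genes with at least 20 TRAV12 chains, TRAJ4 and TRAJ32 had log2 differences of 0.94 and 0.46. On the lower side of these, TRAJ40 had -0.82 (edgeR adjusted p = 0.051), and TRAJ48, TRAJ39, TRAJ42 and TRAJ45 lay between -0.37 and -0.26, none past the threshold. Some genes with fewer chains also had large differences and missed the threshold. TRAJ5 had 1.12 (19 chains, edgeR adjusted p = 0.053) and TRAJ28 had 0.85, while TRAJ53, TRAJ43 and TRAJ50 had -0.90, -0.86 and -0.67. They are named after their values were seen. TRAJ31 was at 5.10% against 4.86% and TRAJ34 at 3.99% against 3.39%.

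No TRAJ partner within TRAV12 was called between genotypes. Of 39 TRAJ genes 0 (0%) passed in edgeR, 0 had an unadjusted p under 0.05 and DESeq2 called 0. The term for a genotype difference in the TRAV12 against other contrast was called for 0 of 42 TRAJ genes, with 0 at an unadjusted p under 0.05. With 88 to 251 TRAV12 chains per library, differences in single TRAJ genes were hard to detect at this depth.

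TRAJ position differed widely between the V region types of TRAV12. Over the 6 libraries the mean TRAJ number was 21.1 for Trav12d-3/Trav12n-3 and 22.2 for the shared type Trav12d-2/Trav12n-2. It was 32.6 for Trav12-3, 32.9 for Trav12-1 and 36.8 for Trav12-2, which lie nearest the J genes. Trav12d-1/Trav12n-1, whose D copy is the farthest upstream, stood between them at 30.2 over 10 chains, and at 27.9 over its 51 chains in 8 libraries. Position in the array thus did not order all types. The shared type had means of 20.3, 23.3 and 22.4 in WT dCLN, sCLN and iLN, of 22.3, 23.4 and 20.2 in 5xFAD, and of 19.2 in the CD4-titled and 20.5 in the mixed library. All other TRAV12 chains as 1 group had means from 26.5 to 33.5 in these libraries, higher than the shared type in each of the 8.

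The reference types were also pooled by copy. The 5 libraries that hold Trav12-1 to Trav12-3 were used. In these, types of D and N copies, the shared type included and most of them of numbers 2 and 3, had mean TRAJ numbers of 20.0, 21.5 and 24.4 in WT dCLN, sCLN and iLN, 20.0 in the CD4-titled and 22.2 in the mixed library. The types Trav12-1 to Trav12-3 had 34.5, 30.4, 36.8, 37.6 and 35.8. These pooled ranges did not overlap, but values of single types did. Trav12-3 had 25.7 in WT sCLN (7 chains), and Trav12d-3/Trav12n-3 had 26.9 in WT iLN (22 chains). The shared type, which 5xFAD libraries also hold, made up 34 of 56, 31 of 51 and 42 of 68 D and N copy chains in WT dCLN, sCLN and iLN. It made up 100 of 138 in the CD4-titled and 91 of 205 in the mixed library. These groupings were made after the values had been seen and carry no test. Of the non-reference types, TRAV12-2*01 had 32.2, TRAV12-1*02 32.2, TRAV12D-3*02 variant a 30.8, TRAV12D-1*02 27.7 and variant b 22.9, and the array positions of these sequences were not analysed here.

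**Figure D5:**
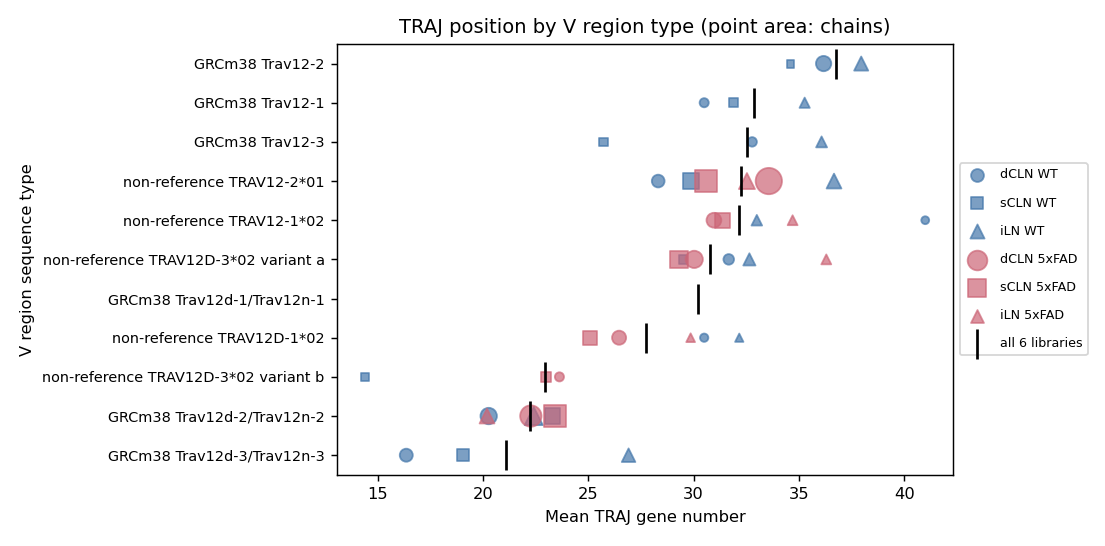
Mean TRAJ number (horizontal axis) of chains of each V region type (vertical axis), with a point per library of at least 5 chains, its area set by the number of chains, and a black bar for all 6 libraries. The points of Trav12d-2/Trav12n-2 lie between 20.2 and 23.4 in both genotypes, left of those of Trav12-2.

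By TRAJ group, TRAJ genes numbered 40 and above took 7.41% to 13.3% of shared-type chains over the 6 libraries and 21.7% to 36.4% of non-reference chains. TRAJ genes 2 to 20 took 35.5% to 59.3% of shared-type chains and 14.8% to 32.6% of non-reference chains. Both pairs of ranges were apart. The non-reference types alone, at 29.4% ± 4.95 in TRAJ genes 40 and above, lay closer to the 34.2% ± 2.67 of other TRA chains than TRAV12 as a whole did, at 23.5% ± 4.75 (SD, n = 6).

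Junctions of TRAV12 had the usual length of TRA junctions. They had fewer added bases in the 6 main libraries, short of the threshold after adjustment. The median length was 39 nt or 42 nt in every library, with a range from 21 to 54 nt. Mean length was 40.4 nt for both TRAV12 and other chains (exact sign-flip permutation p = 0.469, 6 libraries). Added bases averaged 2.30, 2.34 and 2.48 nt in WT dCLN, sCLN and iLN and 2.62, 2.75 and 2.42 nt in 5xFAD. The mean of 2.49 ± 0.17 was below that of other chains, 2.71 ± 0.08, in 6 of 6 libraries (SD, n = 6, exact p = 0.031, adjusted 0.056). The CD4-titled library had 2.60 against 2.69 nt, but the library labelled mixed went the other way, at 2.68 against 2.58 nt. UMIs per chain were also lower for TRAV12 in 6 of 6 libraries, at 6.02 ± 0.45 against 6.54 ± 0.31 (exact p = 0.031, adjusted 0.056), and the part of this depth difference in the other values was not tested.

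No genotype difference in 8 TRAV12 measures passed the exact sign-flip test, which cannot go below 0.25 with 3 node types. Calls naming a D or N copy first averaged 69.2% ± 7.35 in WT and 54.6% ± 4.41 in 5xFAD (SD, n = 3), lower in 5xFAD in 3 of 3 nodes (exact p = 0.25). The node differences were -24.6, -2.01 and -17.5 percentage points in dCLN, sCLN and iLN. A barcode with 2 productive TRA chains was found for 10.9% ± 4.06 of TRAV12 chains and 10.0% ± 3.22 of others (SD, n = 6, exact p = 0.344).

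The first bases of the junction come from the V gene and split the types into 2 sets. The junction began with tgtgctttg in 88.3% of Trav12-2, 85.8% of shared-type, 87.4% of TRAV12-1*02 and 85.4% of TRAV12D-3*02 variant a chains. It began with tgtgctctg in 81.6% of Trav12-1, 88.3% of Trav12-3, 84.3% of Trav12d-1/Trav12n-1, 83.4% of Trav12d-3/Trav12n-3, 87.3% of TRAV12-2*01 and 81.0% of TRAV12D-1*02 chains. The start did not follow the gene number: the reference Trav12-2 and the non-reference TRAV12-2*01 fell in opposite sets.

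Of 1741 distinct TRAV12 junctions, 89 were found in 2 or more of 8 libraries, 12 in 3 or more, and none in more than 4. Shown are 6 of them, by number of libraries and then of cells, as examples of sequences found in separate libraries, with the first 9 bases in capitals. The last of the 6 tied with 6 others in 3 libraries and 3 cells each and was taken by alphabetical order of the sequence.
TRAJ18 junction: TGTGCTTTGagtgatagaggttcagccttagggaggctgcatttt
TRAJ22 junction with added bases: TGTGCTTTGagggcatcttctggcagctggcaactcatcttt
TRAJ22 junction without added bases: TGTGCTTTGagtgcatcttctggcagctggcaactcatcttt
TRAJ33 junction: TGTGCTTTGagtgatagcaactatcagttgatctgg
TRAJ13 junction: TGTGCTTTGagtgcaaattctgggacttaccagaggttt
shorter TRAJ18 junction: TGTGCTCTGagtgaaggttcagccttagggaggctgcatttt

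The TRAJ18 junction was found in dCLN and iLN of both genotypes, on the shared type and on TRAV12D-3*02 variant a. The TRAJ22 junction with 2 added bases was found in 5xFAD dCLN and sCLN, WT iLN and the CD4-titled library, on the shared type. The TRAJ22 junction without added bases was found in all 3 5xFAD libraries and the CD4-titled library, on 3 types. The TRAJ33 junction occurred in 5xFAD dCLN, WT sCLN and the mixed library, on 4 types and in 6 cells. The 5 with no added bases can be spelled out by V and J bases alone, as the caller divides them.

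Shared junctions as a whole had fewer added bases than junctions found in 1 library. Their chains had a mean of 1.12 against 2.75 added bases, and 52.8% against 15.5% had none. On more than 1 V region type lay 61 of the 89 shared junctions. Per 100000 pairs of chains, 16.3 junctions were shared between WT libraries (95% interval 8.15 to 29.2), 13.9 between 5xFAD libraries (7.57 to 23.2) and 8.10 between genotypes (5.02 to 12.4). These intervals overlap, and libraries of 1 genotype may share animals.

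Expanded TRAV12 chains were rare, but the rate among other TRA chains is not set beside them, so rarity is not shown to be particular to TRAV12. From 2 to 4 chains per main library were seen in 2 or more cells, and none of those in more than 2 cells. In the CD4-titled library 10 of 401 chains were repeated, the largest in 3 cells, with Trav12-2 joined to TRAJ42. Cells with a pair of TRAV12 chains numbered 2 in WT iLN, 1 in WT sCLN and 2 in 5xFAD sCLN.

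TRBV partners of TRAV12, from cells with 1 productive beta chain (TRB), were compared with those of other V genes, and none passed the test. The main libraries gave 69 to 198 TRAV12 clonotypes each. Of 21 TRBV genes 0 (0%) passed in edgeR, 3 had an unadjusted p under 0.05 and DESeq2 called 0. Among the TRBV genes with at least 20 TRAV12 clonotypes TRBV20 had the largest difference, with 7, 6 and 8 clonotypes in WT dCLN, sCLN and iLN and 11, 7 and 7 in 5xFAD. That is 6.20% ± 2.11 of TRAV12 clonotypes against 3.44% ± 0.45 of others (SD, n = 6), a log2 difference of 0.73 (SE 0.25, edgeR adjusted p = 0.083), higher in 6 of 6 libraries. TRBV3 had -0.56 (edgeR adjusted p = 0.227), at 3.66% ± 1.2 against 5.08% ± 1.72. Larger fitted differences were seen for TRBV23 (-0.95), TRBV15 (-0.85) and TRBV16 (-0.76), which had fewer TRAV12 clonotypes, did not pass and are named after their values were seen. TRBV16, with 16 TRAV12 clonotypes, was lower in 6 of 6 libraries (edgeR adjusted p = 0.227). With the CD4-titled and mixed libraries added, TRBV20 (log2 difference 0.67) and TRBV3 (-0.61) both passed, with an adjusted p of 0.00944.

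The most used beta genes were TRBV13-2 with 105 TRAV12 clonotypes, TRBV1 with 80, TRBV13-1 with 68, and TRBV13-3, TRBV31 and TRBV5 with 65 each. TRBV13-2 was at 12.7% ± 3.46 against 11.4% ± 1.13 and TRBV1 at 10.6% ± 3.55 against 10.4% ± 1.39 of other clonotypes. TRBV4, TRBV12-1 and TRBV26 had log2 differences of 0.39, 0.44 and 0.14, and TRBV31, TRBV29 and TRBV5 of -0.23, -0.08 and -0.06, none past the threshold. The genotype term of this contrast was called for 0 of 21 genes, with 1 at an unadjusted p under 0.05.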

How the data were processed

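T-cell receptor contigs from single-cell libraries of lymph node cells were read from 1 deposited table per library. Cell Ranger 6.0.1, Seurat 4.1.0 and build mm10 are named in the submitters' processing notes, and genes were called with IgBLAST, per the file headers. The deposited UMI and read counts per contig were raw, per the file headers. V identity as deposited is a fraction of aligned bases, per the file headers, and lengths are in nucleotides. Distinct TRA chains were counted per library. Features with under 10 chains were left out. Counts were tested with edgeR 4.0.16 (DESeq2 1.42.0 as alternative), in R 4.3.3, with the chain total as offset and Benjamini-Hochberg adjustment over all features, and the fits were checked on simulated counts. Terms were node type and genotype, or library and chain class. Single values were compared by exact two-sided sign-flip permutation. Intervals are exact (Clopper-Pearson or Poisson). V regions were matched to spliced GENCODE transcripts of GRCm38. Named TRAJ and TRBV genes were those past the threshold, the 5 most used and the 5 largest differences in each direction with at least 20 TRAV12 chains. Named junctions were the 6 in the most libraries, then cells. Members and lists were chosen with earlier results of these data known. Alternatives covered the counted unit, ambiguous calls, UMIs, scaling, filter, block and libraries. Cells with more than 1 TRB or 2 TRA chains were set aside for TRBV partners, and no other doublet caller was run. Nonproductive contigs were not used.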

Additional observations from a re-analysis of the deposited data

Results flagged for a closer look

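The genotype difference in 7 TRAV12 measures had opposite signs in different node types, with 1 library per node and genotype, and these differences between nodes were not tested. In iLN, unlike dCLN and sCLN, 5xFAD minus WT was -0.0606 nt for added bases, 4.74 percentage points for ambiguous calls, -0.657 nt for junction length and -1.65 for mean TRAJ number. In the same node it was 2.57 percentage points for chains with an identity of 1 and 0.000469 for mean identity. In sCLN, unlike dCLN and iLN, 5xFAD minus WT was -0.0799 for UMIs per chain. The CD4-titled dCLN library labelled 5xFAD, which took part in no comparison, held 405 TRAV12 chains, of which 110 were of reference types other than the shared one.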

How the results depend on the processing

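The log2 change of the TRAV12 share in 5xFAD was negative under all 14 alternatives, from -0.67 without ambiguous calls to -0.31, and -0.57 to -0.31 without 1 library. Features called between genotypes numbered 0 in the main test, 3 with clonotypes of paired cells, 2 with TMM factors and 1 to 9 without 1 library. TRAV12 copies called numbered 3, and 0 to 4 without 1 library, among 3 to 24 TRAV genes. TRAJ genes called against other chains numbered 2, but 5 with contigs, 0 without ambiguous calls, 1 in DESeq2, 4 with 8 libraries and 1 to 4 without 1 library. With no replicate block, that is without the library term, they numbered 7, and the block changed no TRBV call. TRBV genes called numbered 0, but 2 with 8 libraries. TRAJ partners between genotypes gave 0 calls throughout. The cause of these changes was not tested.

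Log2 differences near 0 changed sign. With 8 libraries TRAJ39 was at 0.0896, TRBV26 at -0.0681 and TRBV5 at 0.0767. Without ambiguous calls TRAJ45 was at 0.0253, TRAJ31 at -0.18, TRBV29 at 0.077 and TRBV13-1 at 0.19. TRAJ31 was at -0.0282 with at least 2 UMIs and at -0.15 with TMM factors. TRBV13-1 was at 0.0011 in DESeq2, and TRBV13-3 at -0.0463 with TMM factors and -0.0049 with no replicate block. Without 1 library the ranges were -0.68 to 0.0531 for TRAJ45, -0.0656 to 0.11 for TRAJ31, -0.23 to 0.0857 for TRBV1, -0.22 to 0.0327 for TRBV29, -0.14 to 0.00049 for TRBV5, -0.12 to 0.076 for TRBV13-1 and -0.0949 to 0.0639 for TRBV13-3.

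Of the single values, the genotype difference in ambiguous calls was -0.086 percentage points with contigs and -1.94 to 1.48 without 1 library. Without 1 library it was -0.000551 to 0.000114 for mean identity, -0.08996 to 0.641 nt for junction length and -0.255 to 1.52 for TRAJ number. With 8 libraries these TRAV12 differences from other chains passed the exact test after adjustment: ambiguous calls 20.3 percentage points, mean identity 0.000988, added bases -0.168 nt, UMIs -0.506, D or N names 10.3 percentage points and TRAJ number -2.84. Cells with a second TRA chain were then at -0.174 percentage points. In the library labelled mixed, TRAV12 chains had more added bases and a lower mean identity than other chains. Without ambiguous calls, chains with an identity of 1 were at -4.64 and D or N names at -0.201 percentage points. Depth, at 88 to 251 TRAV12 chains per main library, limits what can be seen for single TRAJ and TRBV genes.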
